A study of Mus musculus with 36 samples.

Results

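Endoplasmic reticulum stress genes were examined in mouse liver as a set of 10 genes fixed by name: the chaperones Hspa5 and Hsp90b1, the co-chaperones Dnajb9 and Sdf2l1, the folding enzymes Pdia4 and Creld2, the degradation factor Herpud1, and the transcription factors Xbp1, Atf4 and Ddit3. They are 10 of the 53715 gene identifiers in the count table, and all 10 passed the filter on low counts. The samples were whole livers of male C57BL/6 mice, an inbred strain, taken at 10 weeks of age. The control group ate AIN93G, a purified rodent diet. The red group and the tangerine group ate a diet with 10% of its weight as powder of red or of tangerine tomato, types that differ in the form of lycopene they hold. All groups started at 4 weeks of age and ate their diet for 6 weeks. Each diet had 12 libraries, each with its own mouse number, whereas the group size in the protocol is a range whose lower end is below 12. The comparison asks whether the level of these transcripts differed with tomato powder or with the type of tomato.

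The endoplasmic reticulum is where secreted and membrane proteins are folded, and the hepatocyte, which makes most plasma proteins, carries a large amount of it. When unfolded proteins accumulate there, the sensors IRE1, PERK and ATF6 start the unfolded protein response. ATF6 is cleaved to an active transcription factor, IRE1 splices Xbp1 mRNA to a form that encodes another, and PERK slows translation while that of Atf4 rises. Their targets include the chaperones, the oxidoreductases and the degradation machinery of the organelle, and under prolonged stress Ddit3, which encodes CHOP. Counts per gene do not separate the spliced from the unspliced form of Xbp1 mRNA, and they do not show translation or cleavage.

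ATF6 and XBP1 bind the endoplasmic reticulum stress element (ERSE), in which a CCAAT box and a CCACG box stand a fixed distance apart. The 250 bases before the RefSeq start of each gene (build GRCm38.p6, both strands) were searched for CCAAT and CCACG with 9 bases between them (ERSE), ATTGG and CCACG with 1 base between them (ERSE-II), TGACGTGG (the core of the unfolded protein response element), TGATGCAA (the core of the composite site bound by ATF4 with a C/EBP protein) and CCAAT. All 10 genes matched an entry. ERSE was found in 3 of the 10 promoters, against 37 of all 32851 promoters of that length (0.113%). ERSE-II was found in 1 of 10 (0.0304% of all), the composite core in 1 of 10 (0.791% of all) and the unfolded protein response element core in 0 of 10 (0.563% of all). The elements were chosen as known ones of this response, so these shares describe the 10 genes and test nothing. Every ERSE and ERSE-II match contains a CCAAT box by its own letters, and CCAAT alone was in 9 of 10 promoters and in 33.8% of all. Shown are the 4 promoters with a match, then those of Pdia4 and Sdf2l1, which held none but whose transcripts varied with Hspa5 and Creld2 from liver to liver. Capitals mark ERSE, ERSE-II or the composite core.

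Hspa5 (chr2:34771840-34772089, plus strand): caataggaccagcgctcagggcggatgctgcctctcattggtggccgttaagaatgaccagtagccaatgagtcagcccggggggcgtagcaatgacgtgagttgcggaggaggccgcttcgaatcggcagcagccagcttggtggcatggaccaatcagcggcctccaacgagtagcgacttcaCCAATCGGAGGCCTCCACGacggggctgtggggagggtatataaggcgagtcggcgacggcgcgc
Hsp90b1 (chr10:86705445-86705694, minus strand): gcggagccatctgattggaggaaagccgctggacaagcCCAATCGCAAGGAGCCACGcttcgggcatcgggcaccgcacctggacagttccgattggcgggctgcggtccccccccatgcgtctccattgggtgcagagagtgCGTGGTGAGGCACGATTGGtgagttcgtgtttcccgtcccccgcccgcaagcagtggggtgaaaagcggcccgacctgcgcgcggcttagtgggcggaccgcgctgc
Creld2 (chr15:88819396-88819645, plus strand): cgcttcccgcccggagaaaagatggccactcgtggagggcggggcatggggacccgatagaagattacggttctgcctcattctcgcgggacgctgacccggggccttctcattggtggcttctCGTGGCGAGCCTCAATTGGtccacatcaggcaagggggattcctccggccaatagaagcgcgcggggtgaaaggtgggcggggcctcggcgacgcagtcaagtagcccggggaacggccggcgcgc
Herpud1 (chr8:94386179-94386428, plus strand): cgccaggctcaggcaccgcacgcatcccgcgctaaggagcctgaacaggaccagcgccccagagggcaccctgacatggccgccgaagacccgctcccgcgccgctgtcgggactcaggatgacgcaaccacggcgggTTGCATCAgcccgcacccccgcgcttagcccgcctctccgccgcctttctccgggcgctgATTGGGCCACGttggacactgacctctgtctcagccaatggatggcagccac
Pdia4 (chr6:47813513-47813762, minus strand): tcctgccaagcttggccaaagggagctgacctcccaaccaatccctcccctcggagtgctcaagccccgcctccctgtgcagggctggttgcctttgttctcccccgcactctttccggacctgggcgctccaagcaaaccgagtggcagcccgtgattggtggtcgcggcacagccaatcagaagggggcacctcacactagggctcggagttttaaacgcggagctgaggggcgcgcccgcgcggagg
Sdf2l1 (chr16:17132384-17132633, minus strand): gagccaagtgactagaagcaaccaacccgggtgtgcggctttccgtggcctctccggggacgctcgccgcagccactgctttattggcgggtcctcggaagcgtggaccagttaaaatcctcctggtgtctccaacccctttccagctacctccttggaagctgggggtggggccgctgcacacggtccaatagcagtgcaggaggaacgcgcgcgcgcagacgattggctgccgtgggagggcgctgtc

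Hspa5 held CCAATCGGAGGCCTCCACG from -65 to -47, counted back from the start. Hsp90b1 held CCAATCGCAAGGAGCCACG from -212 to -194 and the reverse complement of another ERSE, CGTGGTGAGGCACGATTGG, from -107 to -89. Creld2 held an ERSE on the reverse strand, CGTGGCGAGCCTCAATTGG, from -126 to -108. Herpud1 held ATTGGGCCACG from -52 to -42 and the reverse complement of the composite core, TTGCATCA, from -112 to -105. A match is an exact match of letters only, a site with any changed letter was not counted, and no binding was measured. In GENCODE release M21 the annotated genes Hspa5, Hsp90b1, Dnajb9 and Ddit3 start upstream of the RefSeq start, so that the window overlaps the annotated gene. For Pdia4, Herpud1 and Xbp1 the RefSeq start lies upstream of the annotated one instead, so that the bases between them were not searched. For Pdia4 these starts are 47813512 and 47813430 on the minus strand.

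The libraries held between 21290169 and 33810573 counts, with a mean of 26718757 ± 2964592 (SD, n = 12) for control, 27540419 ± 2950219 for red and 27492158 ± 2417499 for tangerine. All 7 hepatocyte markers were detected in each diet, with a summed level between 86976 and 130609 CPM, counts scaled to a common library size. A marker list of pancreatic acinar cells summed to 12.7 CPM in tangerine liver 216 and to at most 0.363 CPM in the others. Red liver 186 held 168 CPM of T cell markers, the next red liver 4.41, and 6.74 CPM of adipocyte markers. Leaving out either of these livers brought no member past the threshold. In bulk liver, fewer cells of a type and less RNA per cell cannot be told apart.

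None of the 10 genes passed an adjusted p of 0.05 between diets in edgeR's quasi-likelihood test over 14068 genes, with Benjamini-Hochberg adjustment. The count was 0 of 10 for red against control, where 0.149% of all genes tested were called. It was 0 of 10 for tangerine against control (0.0142% of all genes) and 0 of 10 for tangerine against red (1.71% of all genes). DESeq2 also called 0 of 10 in each comparison, against 1.17%, 0.0426% and 2.78% of all genes in that order. Limma-voom with sample weights called 0 of 10 as well, against 10.5%, 0.0142% and 5.2% of all genes. At an unadjusted p under 0.05 there was 1 gene for red against control, Herpud1, against 13.3% of all genes. There were 2 for tangerine against control, Creld2 and Ddit3, against 5.47% of all genes, and 0 for tangerine against red, against 15.1% of all genes.

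In edgeR the log2 fold changes were mostly below 0, down to -0.73 for Creld2 in tangerine against control. They were negative for 8 of 10 genes between red and control, with a median of -0.043, for 9 of 10 between tangerine and control, with a median of -0.21, and for 8 of 10 between tangerine and red, with a median of -0.097. Over all genes tested, 48.5%, 44.6% and 48.5% were positive and the medians were -0.0047, -0.012 and -0.0046. The first 2 comparisons share the control livers, and 3 of those livers stood high in several of these genes, as described with the levels of Hspa5. The red median in CPM lay above the control median for Hspa5, Hsp90b1, Sdf2l1, Pdia4, Creld2 and Atf4. It lay below for Dnajb9, Herpud1, Xbp1 and Ddit3. Several of the 10 genes also varied together from liver to liver, so their signs are not separate observations. With limma-voom and sample weights, red against control turned positive for Hspa5 (0.098), Hsp90b1 (0.0033), Sdf2l1 (0.091), Creld2 (0.15), Xbp1 (0.055) and Ddit3 (0.079). Pdia4 (0.19) and Atf4 (0.21) stayed positive there, and Dnajb9 (-0.31) and Herpud1 (-0.55) stayed negative. DESeq2 kept the sign of edgeR for all 10 genes. Within edgeR, Hspa5 (0.023) and Hsp90b1 (0.047) turned positive without control liver 136. Sdf2l1 (0.013) and Ddit3 (0.11) did so without control liver 137. The direction between red and control thus depended, for several genes, on the use of sample weights in limma-voom or on single control livers.

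**Figure D1:**
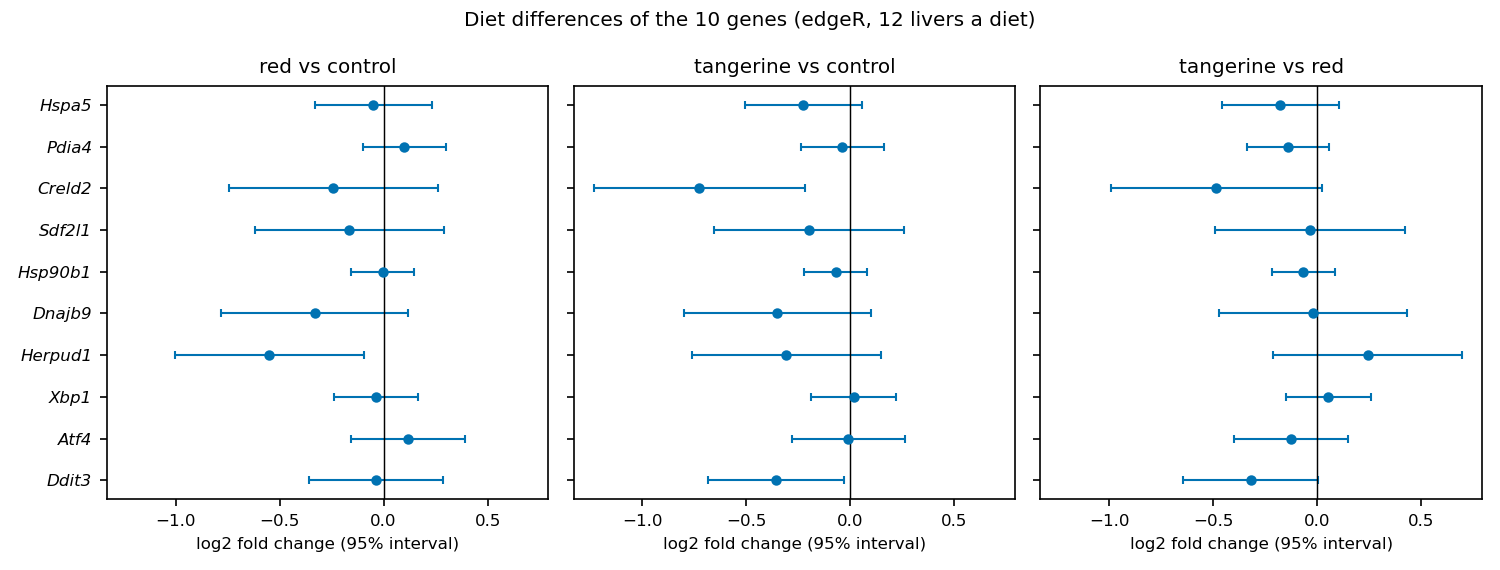
Log2 fold change of each of the 10 genes (points) with its 95% interval (bars) from edgeR, a panel for each comparison, with 12 livers a diet. The intervals of Herpud1 in red against control and of Creld2 and Ddit3 in tangerine against control lie below 0, and none of the 30 adjusted p-values is under 0.05.

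Hspa5 encodes BiP, the chaperone that holds unfolded chains in the organelle and binds the stress sensors (ENSMUSG00000026864, chr2:34771970-34777547, plus strand, protein coding). Its level in control livers ranged from 639.7 to 1543 CPM, with a median of 850.5 and a mean of 1003 ± 330.1 (SD, n = 12). In red livers it ranged from 679.7 to 1288 CPM, with a median of 961 and a mean of 969 ± 172 (SD, n = 12). In tangerine livers it ranged from 605 to 1110.1 CPM, with a median of 852 and a mean of 857 ± 191 (SD, n = 12). The diets overlapped over most of their range, and the control mean lay above the control median. Control livers 136, 188 and 137 held 1543, 1526 and 1490.5 CPM, more than any other of the 36 livers. The log2 fold change was -0.049 (adjusted p 0.912 in edgeR, SE 0.139) for red over control and -0.23 (adjusted p 0.959 in edgeR, SE 0.139) for tangerine over control. Between tangerine and red livers it was -0.18, with a 95% interval from -0.46 to 0.10.

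The same 3 control livers were the highest 3 of 36 in Pdia4, Creld2 and Sdf2l1 as well. Control livers 136 and 188 were also the highest in Hsp90b1 and Dnajb9, with 153 CPM of Dnajb9 in each against a control median of 64.2 CPM. Control liver 137 differed from them: it had the lowest Hsp90b1 of all livers, 297 CPM, the highest Ddit3, 15.9 CPM, and 51.5 CPM of Dnajb9. It also had the lowest total count, and the lowest summed markers of Kupffer cells (69.3 CPM, control median 173) and of sinusoidal endothelial cells (43.2 CPM, control median 143). The part of those measures in its levels was not tested. The livers that followed in Hspa5, Pdia4, Creld2 and Sdf2l1 were all on red, with red liver 170 next in Hspa5 (1288 CPM) and Creld2 (68.7 CPM) and red liver 133 next in Sdf2l1 (41.3 CPM).

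**Figure D2:**
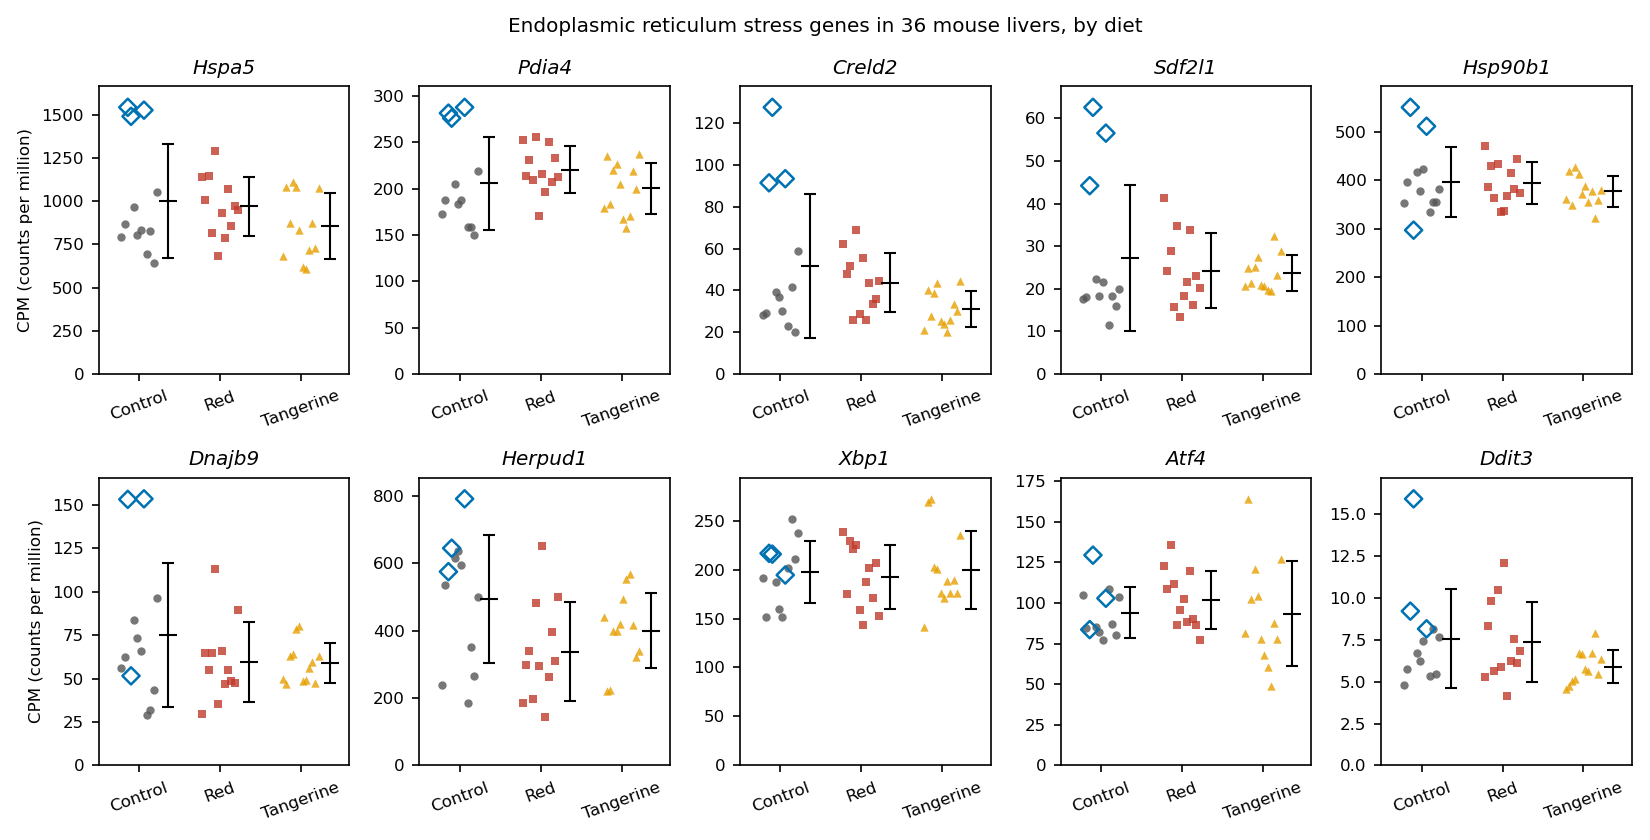
Level of each gene in CPM (linear axis from 0) in each of 36 livers by diet, with the mean and SD of 12 livers a diet as bars. Blue diamonds are control livers 136, 137 and 188, which are the highest 3 of all livers in Hspa5, Pdia4, Creld2 and Sdf2l1 and which lie inside the range of the other livers in Xbp1.

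Hsp90b1 encodes GRP94, the HSP90 chaperone of the organelle (ENSMUSG00000020048, chr10:86690209-86705509, minus strand, protein coding). It was the steadiest of the 10 genes. Mean levels were 397 ± 72.6 CPM in control, 395 ± 43.7 CPM in red and 377 ± 31.4 CPM in tangerine livers (SD, n = 12 each). Log2 fold changes were -0.0050 for red over control, -0.071 for tangerine over control and -0.066 for tangerine over red, with intervals that all lay between -0.22 and 0.15. A pseudogene on the opposite strand overlaps it, with 1850 counts in all libraries together against 383751 for Hsp90b1.

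Dnajb9 encodes ERdj4, a J-domain co-chaperone of BiP that also binds IRE1 (ENSMUSG00000014905, chr12:44205559-44210326, minus strand, protein coding). Its range was 29.1 to 153 CPM in control livers (median 64.2), 29.5 to 113 CPM in red livers (median 54.9) and 46.9 to 80.03 CPM in tangerine livers (median 57.6). Control livers held both the lowest and the highest values, and 10 of 12 tangerine livers lay below the control median. Tangerine livers over control gave a log2 fold change of -0.35 (adjusted p 0.959 in edgeR, SE 0.222). It was -0.21 without control liver 188 and -0.20 with limma-voom and sample weights.

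Sdf2l1, which encodes a cofactor of the BiP cycle (ENSMUSG00000022769, chr16:17130138-17132383, minus strand, protein coding), showed a mean and a median that pointed in opposite directions. In control livers it ranged from 11.4 to 62.6 CPM, with a median of 19.1 and a mean of 27.2 ± 17.1 (SD, n = 12). In tangerine livers it ranged from 19.4 to 32.4 CPM, with a median of 22.3 and a mean of 23.7 ± 4.12 (SD, n = 12). All 12 tangerine livers lay above the control median, and the tangerine mean lay below the control mean. Red livers ranged from 13.3 to 41.3 CPM around a median of 22.3. Tangerine over control gave a log2 fold change of -0.20 (adjusted p 0.9999 in edgeR, SE 0.225), and without control liver 137 it was -0.022.

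Pdia4 encodes ERp72, a protein disulfide isomerase (ENSMUSG00000025823, chr6:47796141-47813430, minus strand, protein coding). It ranged from 150.2 to 288 CPM in control livers (median 188), from 171 to 256 CPM in red livers (median 215) and from 157 to 238 CPM in tangerine livers (median 203). Of the red livers, 11 of 12 lay above the control median, and none lay above the highest control liver. On the log2 scale, red livers differed from control by 0.10 (adjusted p 0.696 in edgeR, SE 0.0978). The difference was 0.15 without control liver 188, and 0.19 with limma-voom and sample weights (p 0.0359, adjusted 0.155).

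Creld2, which encodes a protein of the organelle with a disulfide isomerase activity (ENSMUSG00000023272, chr15:88819646-88826683, plus strand, protein coding), had its lowest mean level on tangerine. Control livers ranged from 19.8 to 128 CPM, with a median of 38.02 and a mean of 51.6 ± 34.3 (SD, n = 12). Red livers ranged from 25.7 to 68.7 CPM, with a median of 44.05 and a mean of 43.6 ± 14.2 (SD, n = 12). Tangerine livers ranged from 20.01 to 44.6 CPM, with a median of 28.7 and a mean of 31.2 ± 8.76 (SD, n = 12). Of the tangerine livers, 11 of 12 lay below the red median and 8 of 12 below the control median, and 4 lay below every red liver. On the log2 scale, tangerine livers differed from control by -0.73 (edgeR p 0.00620, adjusted 0.608, SE 0.250). They differed from red livers by -0.48 (edgeR p 0.0597, adjusted 0.351, SE 0.249). The first of these was -0.52 without control liver 137, and -0.37 with limma-voom and sample weights. It was not called under any setting, with the lowest adjusted p, 0.374, in DESeq2.

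Herpud1 encodes HERP, a membrane protein that assembles the complex that sends misfolded proteins out for degradation (ENSMUSG00000031770, chr8:94386438-94395377, plus strand, protein coding). Control livers ranged from 186 to 791 CPM, with a median of 555 and a mean of 495 ± 190 (SD, n = 12). Red livers ranged from 144 to 650.4 CPM, with a median of 305 and a mean of 338 ± 147 (SD, n = 12). Tangerine livers ranged from 219.5 to 569 CPM, with a median of 408 and a mean of 399.6 ± 111 (SD, n = 12). Of the red livers 11 of 12, and of the tangerine livers 11 of 12, lay below the control median. The ranges overlapped, and 2 red livers lay below every control liver. On the log2 scale, red livers differed from control by -0.55 (edgeR p 0.0193, adjusted 0.280, SE 0.224), and tangerine livers by -0.31 (adjusted p 0.994 in edgeR, SE 0.224). Over all settings the adjusted p of red against control was lowest with limma-voom and sample weights, at 0.0892. An antisense gene that overlaps its first part had 2676 counts in all against 401930 for Herpud1, and the strand setting of the counting is not given in the sources used here.

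The transcription factors showed no common direction. Xbp1 (ENSMUSG00000020484, chr11:5520659-5525893, plus strand, protein coding) had a mean of 197 ± 31.9 CPM in control, 192 ± 32.4 CPM in red and 199.6 ± 40.1 CPM in tangerine livers (SD, n = 12 each). Its log2 fold changes lay between -0.037 and 0.053, and their intervals between -0.24 and 0.26. Atf4 (ENSMUSG00000042406, chr15:80255184-80257541, plus strand, protein coding) had means of 94.1 ± 15.7, 102 ± 17.8 and 93.4 ± 32.3 CPM in the same order. Of the red livers 11 of 12 lay above the control median of Atf4, with a log2 difference of 0.12 (adjusted p 0.751 in edgeR, SE 0.135). Tangerine livers held both extremes of Atf4, 48.7 CPM in liver 217 and 164 CPM in liver 160, and 3 of them lay below every control liver.

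Ddit3, which encodes CHOP, a transcription factor linked to cell death under prolonged stress, was the least abundant of the 10 genes (ENSMUSG00000025408, chr10:127290774-127296288, plus strand, protein coding), with 122 to 318 counts in a library. Control livers ranged from 4.80 to 15.9 CPM, with a median of 7.08. Red livers ranged from 4.17 to 12.1 CPM, with a median of 6.55. Tangerine livers ranged from 4.58 to 7.93 CPM, with a median of 5.69. The tangerine livers kept to the lower part of both other ranges, and 11 of 12 lay below the control median. On the log2 scale the difference was -0.36 (edgeR p 0.0330, adjusted 0.837, SE 0.161) for tangerine over control, -0.32 (edgeR p 0.0536, adjusted 0.339, SE 0.161) between tangerine and red livers and -0.036 in red against control. Without control liver 137 the first of these was -0.21. The end of Ddit3 overlaps Mars on the opposite strand, which had 67002 counts in all libraries together against 6730 for Ddit3, so its level is uncertain to the extent that reads of both strands were counted.

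Per kilobase of exon, which allows genes to be compared, the mean level over all 36 livers was highest for Hspa5, with 223 ± 57.5 CPM per kb (SD, n = 36). Herpud1 followed with 176 ± 69.5, Hsp90b1 with 96.7 ± 12.8, Pdia4 with 87.1 ± 15.1 and Xbp1 with 60.5 ± 10.5. Lower still were Atf4 with 40.9 ± 9.67, Creld2 with 30.8 ± 16.9, Dnajb9 with 25.3 ± 11.1 and Sdf2l1 with 22.6 ± 10.04 CPM per kb, and Ddit3 was lowest with 4.05 ± 1.35. Neighbours in this order whose means differed by less than either SD were Hspa5 and Herpud1, Hsp90b1 and Pdia4, and Creld2, Dnajb9 and Sdf2l1 among themselves.

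Much of the variation was between livers of the same diet. Within diets, the SD of log2 CPM was 0.62 for Creld2, 0.59 for Herpud1, 0.56 for Dnajb9 and 0.55 for Sdf2l1. These values were larger than those of 98.8%, 96.6%, 98.8% and 99% of the 500 genes nearest to each in mean level. For Hsp90b1 the SD was 0.18, larger than 50% of its nearest 500 genes, and the other genes lay between 75.2% and 89.2%. In Creld2 the highest liver of all held 6.43 times the lowest, and in Hsp90b1 1.85 times. The coefficient of variation of Creld2 was 66.5% in control, 32.6% in red and 28.1% in tangerine livers, and that of Sdf2l1 was 62.9%, 35.9% and 17.4%. The order was not shared by all 10 genes: Atf4 varied by 16.6%, 17.4% and 34.6%, and Herpud1 by 38.4%, 43.6% and 27.8%. These differences in spread were not tested.

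Hspa5, Pdia4, Creld2 and Sdf2l1 kept nearly the same order of livers. Correlations were taken on log2 CPM with the mean of each diet subtracted, over 36 livers and 45 pairs of genes, with two-sided permutation tests within diets. Pearson's r was 0.95 for Hspa5 and Pdia4 (Spearman's rho 0.94), 0.92 for Hspa5 and Creld2 (rho 0.91), 0.88 for Pdia4 and Creld2 (rho 0.86), 0.87 for Sdf2l1 and Pdia4 (rho 0.85), 0.85 for Hspa5 and Sdf2l1 (rho 0.84) and 0.85 for Sdf2l1 and Creld2 (rho 0.80). Each of these 6 pairs had a permutation p of 1e-05 for r and for rho, the smallest that 100000 permutations can give (adjusted 6.43e-05 for r and 7.5e-05 for rho). Without the 2 livers farthest from the median, r was between 0.78 and 0.94. Within the red livers, which hold none of the 3 high control livers, r of Hspa5 was 0.93 with Pdia4, 0.87 with Creld2 and 0.88 with Sdf2l1. Within the tangerine livers it was 0.91, 0.92 and 0.71. In the window shown, the promoters of Hspa5 and Creld2 hold an exact ERSE match, and those of Pdia4 and Sdf2l1 hold none. For Pdia4 the bases between the RefSeq start and the annotated start were not searched.

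**Figure D3:**
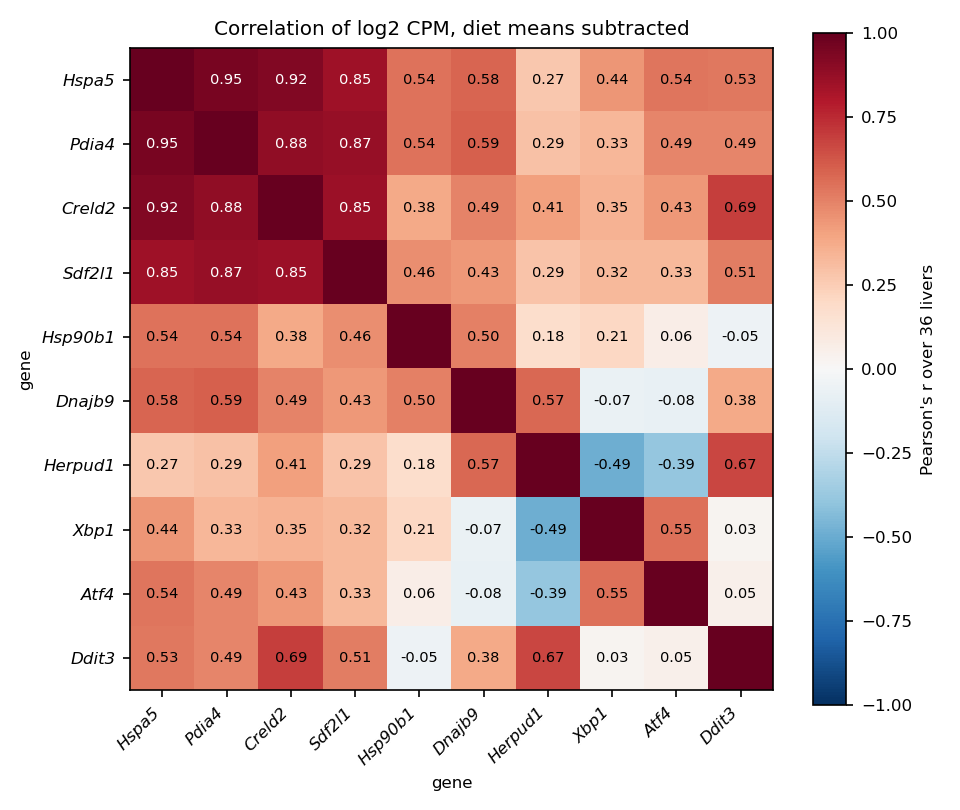
Pearson's r of log2 CPM between the 10 genes over 36 livers, with the mean of each diet subtracted (colour scale from -1 to 1, values printed). Hspa5, Pdia4, Creld2 and Sdf2l1 form a block from 0.85 to 0.95, and Herpud1 is negative with Xbp1 (-0.49) and Atf4 (-0.39).

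Over all livers Hsp90b1 had lower r with these 4 genes. Its r was 0.54 with Hspa5 (rho 0.59, permutation p 0.00222, adjusted 0.00588), and 0.36 without control livers 136 and 188, with control liver 137 kept in both. By diet it was 0.48 in control, 0.79 in red and 0.50 in tangerine livers. In red livers its r was also 0.83 with Pdia4 and 0.85 with Sdf2l1, above the 0.72 of Sdf2l1 with Creld2 in those livers. Dnajb9 had an r of 0.58 with Hspa5 (rho 0.51, permutation p 0.00071, adjusted 0.00319), and 0.42 without the same livers, with 0.72, 0.37 and 0.53 in the 3 diets. Over all 45 pairs the median r was 0.44.

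Herpud1 varied with some of the other genes and against others. Its r with Hspa5 was 0.27 (rho 0.20, permutation p 0.136, adjusted 0.166), and it differed in sign between diets, with 0.70 in control, 0.26 in red and -0.57 in tangerine livers. With the co-chaperone Dnajb9 it was 0.57 (rho 0.51, permutation p 0.00125, adjusted 0.00375), with 0.72, 0.58 and 0.0040 by diet, and 0.54 without control livers 136 and 188. With Creld2 it was 0.41 (rho 0.31, permutation p 0.0237, adjusted 0.0381; for rho adjusted 0.112), with 0.67, 0.50 and -0.49 by diet. With Ddit3 it was 0.67 (rho 0.62, permutation p 5e-05, adjusted 0.000281) and positive in each diet, at 0.59, 0.85 and 0.42. With Xbp1 it was -0.49 (rho -0.47, permutation p 0.00295, adjusted 0.00737) and negative in each diet, at -0.28, -0.50 and -0.78. Atf4 also ran against Herpud1, with an r of -0.39 (rho -0.43, permutation p 0.00875, adjusted 0.0171). Xbp1 and Atf4 went together, with an r of 0.55 (rho 0.55, permutation p 0.00098, adjusted 0.00357). Without the 2 livers farthest from the median the values of the last 4 pairs were 0.60, -0.56, -0.44 and 0.47.

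Clock genes differed between the diets, and Herpud1, Ddit3 and Atf4 varied with them. Of 10 tested clock genes, 6 passed the adjusted threshold in tangerine against red (1.71% of all genes), among them the output gene Dbp, with a log2 difference of 1.84 (adjusted p 0.0289 in edgeR, SE 0.458), and the core activator Arntl, with -1.46 (adjusted p 0.0464 in edgeR, SE 0.396). None of the 10 passed when red or tangerine livers were compared with control livers, where 9 and 0 had an unadjusted p under 0.05, DESeq2 called 1 and 0, and limma-voom called 7 and 0 (10.5% and 0.0142% of all genes). The time at which the livers were collected is not given in the sources used here. A clock score, the first principal component of these genes with high values for high Dbp, averaged 0.66 ± 2.39 in control, -2.24 ± 1.90 in red and 1.57 ± 1.98 in tangerine livers (SD, n = 12 each).

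With diet means subtracted, r with the clock score was 0.46 for Herpud1 (rho 0.54, permutation p 0.00717, adjusted over 10 genes 0.0358). It was 0.43 for Ddit3 (rho 0.48, permutation p 0.0149, adjusted 0.0496) and -0.45 for Atf4 (rho -0.48, permutation p 0.00507, adjusted 0.0358). Without control livers 188 and 120, the farthest from the median score, these were 0.62, 0.48 and -0.46. By diet, r for Herpud1 was 0.16 in control, 0.71 in red and 0.68 in tangerine livers, and control liver 188 combined the lowest score with the highest Herpud1. For the 7 other genes r lay between -0.14 and 0.10, with an adjusted p for r of at least 0.783. In 6 of these 7 genes the sign differed between red and tangerine livers: r was 0.67 and -0.29 for Creld2, 0.58 and -0.11 for Dnajb9, 0.49 and -0.51 for Hspa5, 0.30 and -0.49 for Pdia4, 0.22 and -0.33 for Sdf2l1 and 0.095 and -0.050 for Hsp90b1. The difference between diets was not tested. With the clock score as covariate in the edgeR model, the log2 fold change of Herpud1 in red against control was -0.33 (SE 0.225, p 0.150, adjusted p 0.609). In that model Ddit3 in tangerine against red was -0.61 (SE 0.182, p 0.00184, adjusted p 0.224), and Atf4 in red against control was -0.090. The r of Atf4 with the total count of the library was -0.42 (rho -0.44, permutation p 0.00661, adjusted over 10 genes 0.0661), which did not pass the adjusted threshold. The part of the total count in the relation of Atf4 to the clock score was not tested.

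**Figure D4:**
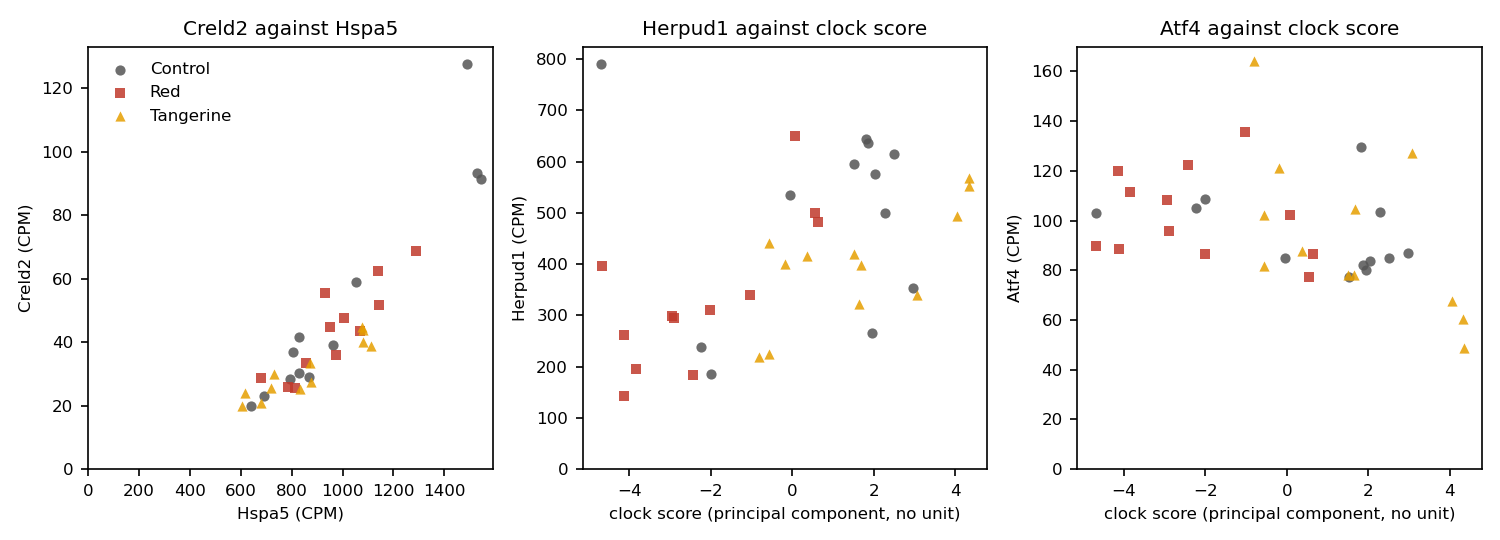
Left, Creld2 against Hspa5 in CPM, 1 point for each of 36 livers, with the 3 high control livers at the upper right. Middle and right, Herpud1 and Atf4 in CPM against the clock score (no unit). Herpud1 tends to be higher at high scores (r 0.46 with diet means subtracted) and Atf4 lower (r -0.45). Exceptions for Herpud1 include control liver 188 at the upper left. They also include control livers 240 (266 CPM at a score of 1.95) and 208 (352 CPM at a score of 2.97).

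Outside the 10 genes, those that followed the mean of the 10 genes most closely included other folding genes. This mean was taken over z-scores: the log2 CPM of each gene, diet means subtracted, was divided by its own SD before averaging. By Pearson's r with the mean of the 10 genes over 36 livers, diet means subtracted, the 10 closest of 10959 genes were Hyou1 (0.94), Dnajb11 (0.93), Manf (0.93), Pdia3 (0.88), Gmppb (0.87), Srprb (0.87), Tmem248 (0.86), Syvn1 (0.86), Abcf3 (0.86) and Tmed3 (0.84). Hyou1 is a nucleotide exchange factor of BiP, Dnajb11 its co-chaperone ERdj3, Manf a secreted stress factor, Pdia3 the disulfide isomerase ERp57 and Syvn1 the ubiquitin ligase of the degradation complex. Srprb is a subunit of the signal recognition particle receptor. In the red and tangerine livers alone (24 livers) these values ran from 0.81 to 0.94. None of the 10 passed between diets, the lowest edgeR adjusted p being 0.407 (Abcf3 in tangerine against red). Mean Hyou1 was 210.4 CPM in control, 224 CPM in red and 186 CPM in tangerine livers, and mean Syvn1 was 96.4, 92.0 and 74.3 CPM.

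By group, the median r with the mean of the 10 genes was 0.62 over 24 other chaperones and folding enzymes and 0.61 over 28 genes of import and secretion. It was 0.42 over 18 genes of endoplasmic reticulum-associated degradation, 0.22 over 10 sensors and their processing factors and 0.044 over 14 targets of ATF4 and CHOP, against -0.029 over all 10959 genes. In the red and tangerine livers alone these medians were 0.61, 0.64, 0.41, 0.33 and 0.18, against -0.013 over all genes. Among the sensors and processing factors r ran from -0.34 to 0.75. It was 0.75 for Eif2ak3, which encodes PERK, 0.23 for Ern1, which encodes IRE1, and 0.0039 for Atf6. Of the other genes on this list, Atf6b, a relative of Atf6, had 0.68, Creb3l2 0.59 and Creb3 0.57. Rtcb had 0.22, Mbtps1 0.067, Creb3l3 0.022 and Mbtps2 -0.34.

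**Figure D5:**
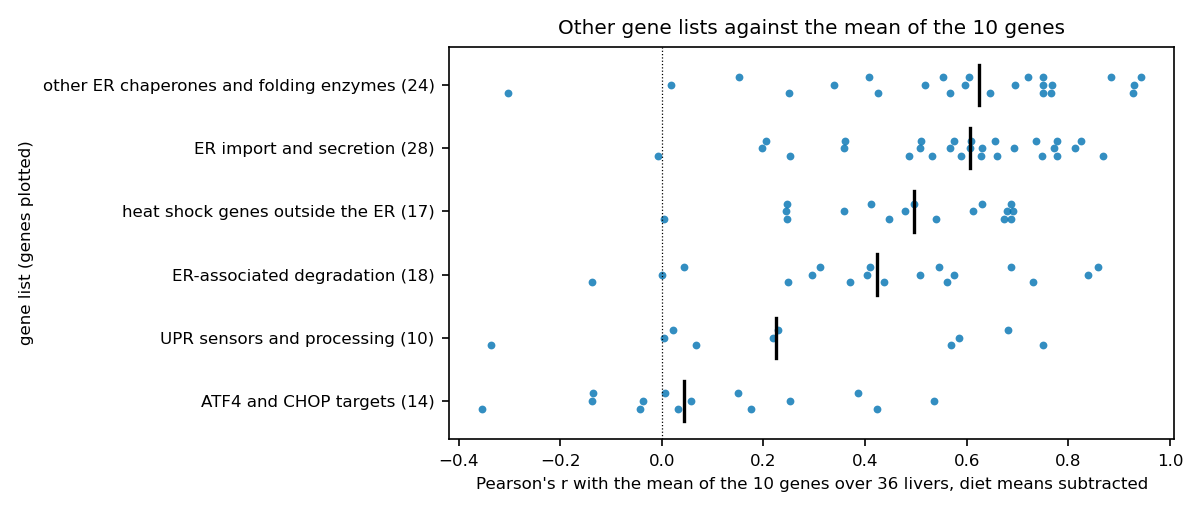
Pearson's r of each gene (points) with the mean z-score of the 10 genes over 36 livers, diet means subtracted, by gene list. The list's median is a bar. The medians run from 0.044 for the ATF4 and CHOP targets to 0.62 for the other chaperones, and single genes within each list spread widely.

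None of the genes on these 5 lists passed an adjusted p of 0.05 between diets in edgeR. For the sensors and processing factors, 0 of 10 tested passed in each comparison, with 1, 0 and 0 at an unadjusted p under 0.05 for red against control, tangerine against control and tangerine against red. For the other chaperones 0 of 24 passed, with 0, 1 and 2 at the unadjusted p. For degradation it was 0 of 19, with 2, 0 and 4, and for import and secretion 0 of 30, with 4, 0 and 5. For ATF4 and CHOP targets it was 0 of 21, with 4, 0 and 4. Over the 5 lists together 11, 1 and 15 of 104 genes had an unadjusted p under 0.05, against 13.3%, 5.47% and 15.1% of all genes tested. Median log2 fold changes of these lists lay between -0.054 and 0.096 in all 3 comparisons. DESeq2 called 1 of these genes, Atf3 between red and control, and gave no adjusted p between tangerine and control for 17 of the 21 ATF4 and CHOP targets. Limma-voom with sample weights called 9 of them between red and control livers, 0 between tangerine and control livers and 2 between tangerine and red livers, where it called 10.5%, 0.0142% and 5.2% of all genes.

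The genes of each list with the smallest p for any difference among the diets were the following. Among the sensors, mean Atf6b, a relative of ATF6, was 21.1 CPM in control, 23.7 CPM in red and 21.1 CPM in tangerine livers (edgeR adjusted p 0.461 for any difference), followed by the protease Mbtps1 and the hepatic factor Creb3l3. Among the other chaperones they were the prolyl isomerase Fkbp14 (7.89, 7.15 and 6.65 CPM, edgeR adjusted p 0.250), P4hb and Dnajc3. Among the degradation genes, mean Derl2, a membrane protein of the export channel, was 132 CPM in control, 109 CPM in red and 125 CPM in tangerine livers (edgeR adjusted p 0.129), and Selenok had 31.1, 25.7 and 31.3 CPM (edgeR adjusted p 0.144), with Ube2g2 next. Among the import and secretion genes, Sec24d, a subunit of the COPII coat, had 79.5, 97.0 and 83.8 CPM (edgeR adjusted p 0.213), with Kdelr1 and Spcs1 next.

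Among the ATF4 and CHOP targets, mean Atf3, a stress-induced transcription factor, was 2.26 ± 1.25 CPM in control, 1.22 ± 0.326 CPM in red and 1.67 ± 0.773 CPM in tangerine livers (SD, n = 12 each, edgeR adjusted p 0.117 for any difference). Mean Fgf21, a hormone made by the liver, was 4.60 ± 1.497, 7.85 ± 4.56 and 4.07 ± 2.48 CPM in the same order (edgeR adjusted p 0.138). Mean Trib3, a pseudokinase induced by CHOP, was 5.64 ± 3.37, 4.56 ± 1.201 and 7.14 ± 2.87 CPM (edgeR adjusted p 0.281). The 3 genes did not share an order of diets: red livers had the lowest mean of Atf3 and Trib3 and the highest of Fgf21.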

How the data were processed

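The authors deposited 1 table of raw read counts per gene, whole numbers without normalization, for 36 libraries made from total RNA with a directional kit, per the labels' protocols. FastQC, Trimmomatic, edgeR and GRCm38.p6 are named, with no role or version, per the submitters' processing notes. The aligner, the counting program, its strand setting and its treatment of shared reads are not given in the sources used here. Symbols, exon lengths and positions came from GENCODE release M21 for 53620 of the 53715 identifiers. A second identifier named Ddit3, with 0 counts, was left out.

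Columns were matched to samples by the column names in the labels. The smallest chi-square per degree of freedom between libraries was 13.7 in 198 pairs of the same diet, so all 36 were kept. Mouse numbers were read as separate animals; where they are not, p-values measure only the spread between libraries.

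The default filter on low counts of edgeR 4.0.16 (filterByExpr, minimum count 10, minimum total 15) kept 14068 genes. Counts were scaled by TMM and fitted with edgeR's robust quasi-likelihood F test over all 3 diets without covariates, at an adjusted p of 0.05 (Benjamini-Hochberg over all genes tested). The SE is the fold change over the square root of F. The fit was tested on simulated data, where it recovered 68% to 79% of log2 changes of 0.5 and 92% to 96% of changes of 1. The changed genes were drawn at random from all genes tested, so these shares are not those of the 10 genes. CPM are TMM-scaled, with a prior count of 2 for log2 CPM. Correlations used log2 CPM with diet means subtracted and 100000 permutations within diets (numpy 2.4.6), adjusted over 45 pairs or 10 genes; these p-values were added after the data were seen. The mean of the 10 genes is a mean of z-scores, and no p is given for it. The clock score held 68.7% of the variance of 10 clock genes. At the lowest, 122 counts of a member stood behind a value.

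The 10 genes and all lists were chosen with earlier results of these data known. Named besides the 10 genes were, by rule, 3 genes of each list with the smallest p for any difference, the 10 closest genes among those averaging a log2 CPM of 1 or more, and Arntl, Dbp and Igfbp1. A result that the rule for named genes calls for is not reported here. Ern1, Eif2ak3 and Atf6, as the genes of the sensors themselves, were chosen after their values were seen. So were Creb3, Creb3l2, Mbtps2 and Rtcb, which complete the list of sensors and processing factors. Alternatives were no filter on low counts, size factors of DESeq2, DESeq2 1.42.0, limma-voom of limma 3.58.1, the clock score or mouse number as covariate, only the diets compared, and leaving out each library.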

Additional observations from a re-analysis of the deposited data

How the results depend on the processing

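None of the 10 genes was called in any of the 3 comparisons under any of the 7 other settings or with any of the 36 libraries left out (leaving out each library was chosen after seeing the data, except for tangerine liver 216 and red liver 186). DESeq2 gave no adjusted p for Ddit3 in tangerine against control. No paired analysis was possible because no mouse number occurs in more than 1 diet.

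The number of all genes called moved more. For red against control it was 21, and 164 with DESeq2, 1482 with limma-voom and 4 with the clock score. With a library left out it ranged from 13 to 127, and moved by over 1.5 times without control liver 120 (78), 189 (127) or 245 (32), red liver 166 (13), 170 (85), 177 (60), 186 (54) or 204 (70), or tangerine liver 216 (32). For tangerine against control it was 2, and 6 with DESeq2 and 1 with the mouse number, and 2 to 4 with a library left out (4 without tangerine liver 192). For tangerine against red it was 241, and 136 without the filter, 391 with DESeq2, 732 with limma-voom, 0 with the clock score and 32 with the mouse number. With a library left out it ranged from 89 to 301, and moved by over 1.5 times without red liver 133 (151), 156 (153), 175 (155), 199 (156) or 202 (133), or tangerine liver 215 (115), 216 (89), 217 (105) or 242 (146). At an unadjusted p under 0.05, members numbered 2 with limma-voom and 0 with the clock score in red against control (1 as reported, 1 to 2 with a library left out). They numbered 0 with limma-voom and 1 with the mouse number in tangerine against control (2 as reported, 1 to 2), and 1 with DESeq2, 2 with limma-voom, 1 with the clock score and 2 with only these diets in tangerine against red (0 as reported, 0 to 2). The share of all genes at that unadjusted p was not taken under these settings, so these member counts stand without a background. At the adjusted p, limma-voom called 10.5% of all genes in red against control and 5.2% in tangerine against red. The cause of the shifts in these numbers was not tested.

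Of 210 fold changes of members under other settings, 190 kept their sign. Those that reversed, all with an adjusted p above 0.05, were as follows. In red against control, limma-voom gave 0.098 for Hspa5, 0.0033 for Hsp90b1, 0.091 for Sdf2l1, 0.15 for Creld2, 0.055 for Xbp1 and 0.079 for Ddit3, and the clock score gave -0.090 for Atf4 and 0.18 for Ddit3. In tangerine against control, limma-voom gave 0.075 for Sdf2l1 and 0.026 for Pdia4, the clock score 0.034 for Atf4, the mouse number 0.0031 for Pdia4 and 0.055 for Atf4, and no filter 0.0018 for Atf4. In tangerine against red, limma-voom gave 0.11 for Dnajb9 and -0.0030 for Xbp1, the clock score 0.064 for Sdf2l1, -0.10 for Herpud1 and 0.12 for Atf4, and the mouse number 0.099 for Sdf2l1. With a library left out, 1035 of 1080 kept their sign. Those that changed it ranged from -0.096 to 0.023 for Hspa5, -0.037 to 0.047 for Hsp90b1, -0.26 to 0.013 for Sdf2l1 and -0.12 to 0.11 for Ddit3 in red against control. They ranged from -0.074 to 0.014 for Pdia4, -0.033 to 0.054 for Xbp1 and -0.11 to 0.052 for Atf4 in tangerine against control, and from -0.085 to 0.10 for Dnajb9 and -0.093 to 0.060 for Sdf2l1 in tangerine against red.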

Other observations

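Heat shock genes of the cytosol and mitochondria, the counterpart of these chaperones outside the organelle, had positive correlations with them from liver to liver. The median r of 17 such genes with the mean of the 10 genes was 0.50 over 36 livers, diet means subtracted, and 0.37 in the 24 red and tangerine livers alone. In edgeR 0 of 18 tested passed an adjusted p of 0.05 in any comparison, with 2, 2 and 4 at an unadjusted p under 0.05 for red against control, tangerine against control and tangerine against red, where 13.3%, 5.47% and 15.1% of all genes had one. DESeq2 also called 0 in each, and limma-voom called 2, 0 and 1, against 10.5%, 0.0142% and 5.2% of all genes. Those with the smallest p for any difference were Hspe1, the mitochondrial co-chaperonin (51.0 ± 4.42 CPM in control, 45.01 ± 3.53 CPM in red and 50.3 ± 4.64 CPM in tangerine livers, SD, n = 12 each, edgeR adjusted p 0.111), the inducible Hspa1a, with means of 1.03, 1.14 and 0.447 CPM, and Dnaja1.

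Genes of the fed and fasted state, a list that mixes genes induced by feeding and by fasting, had r between -0.35 and 0.17 with the mean of the 10 genes. None of the 12 passed an adjusted p of 0.05 in edgeR, with 3, 2 and 3 at an unadjusted p under 0.05 (13.3%, 5.47% and 15.1% of all genes), and none passed in DESeq2, while limma-voom called 1 in red against control (10.5% of all genes). Mean Igfbp1, which rises in fasting, was 75.7 ± 51.0 CPM in control, 82.6 ± 64.7 CPM in red and 55.4 ± 54.3 CPM in tangerine livers (SD, n = 12 each, edgeR adjusted p 0.775 for any difference). The feeding state of the mice at collection is not given in the sources used here.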
